A study of Mus musculus with 26 samples.

Results

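The BCL2 family decides whether the outer membrane of the mitochondrion holds or opens. Survival proteins (BCL2, BCL-XL, BCL-W, MCL1 and A1) bind and restrain the pore-forming effectors BAK and BAX, and BH3-only proteins such as BIM, BID, BAD and BIK either block the survival proteins or act on the effectors directly. Once the pore opens, cytochrome c reaches APAF1 and caspases are activated. p53 is known to raise the transcription of several death members of the family. Every pineoblastoma (PB), an embryonal tumor of the pineal gland, sampled here was designed to lose wild-type p53.

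Transcript levels of 10 genes of the family were followed. Of these, Bcl2, Bcl2l1, Bcl2l2 and Mcl1 are survival genes and Bcl2a1c is a copy of the A1 gene. Bak1 is the effector, and Bcl2l11, Bid, Bad and Bik are BH3-only genes. The genes were matched by the symbol in the probe annotation, and all 10 were measured on both array versions, among 19938 named genes on version 1.0 and 22180 on version 2.0 of the Affymetrix mouse gene array. Bcl2a1c was selected on its difference between p53-mutated and p53-deleted tumors, so its version 1.0 values are given as a description with no test. The other 9 genes were chosen by family membership, with earlier results of these data known.

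All tumors came from mice with WAP-Cre, a Cre recombinase under the whey acidic protein promoter of mammary epithelium that in this line is also active in the pineal gland. Version 1.0 held 11 Rb/p53-deleted PBs (both alleles of Rb and of p53 floxed), 5 Rb/p53-mutated PBs (both Rb alleles floxed, 1 floxed p53 allele and 1 p53 allele that Cre switches on and that carries a missense change in the DNA-binding domain) and 3 samples of normal cerebellum. Version 2.0 held 1 further Rb/p53-deleted PB (PB12), 3 Dicer1/p53-deleted PBs and 3 PBs in which Rb, Dicer1 and p53 were all floxed (Rb/Dicer1/p53-deleted). Every tumor group was thus designed to lose wild-type p53. The study describes the mutated p53 protein as stabilized and attributes a gain of function to it. Cerebellum stood in for normal tissue and differs from the pineal gland in its cells; normal pineal tissue was not analysed here. The study used mice of both sexes on a mixed background, but the age and sex behind each sample were not given in the sources used here, nor whether each tumor came from a separate mouse, so the p-values measure the spread between these samples.

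The values were log2 signals, and 3 sets of arrays stood apart on version 1.0. The deposited array medians lay between 7.90 and 7.97 for Rb/p53-deleted PB1 to PB10 and between 7.95 and 8.01 for the 3 cerebellum arrays together with Rb/p53-deleted PB11, which also had a wider spread (interquartile range 3.17 to 3.25 against 2.57 to 2.87). The 5 Rb/p53-mutated arrays had medians of 7.04 to 7.12, so that set and genotype cannot be told apart for them. Deleted tumors against cerebellum is also mostly a comparison across sets, since PB11 is the only tumor in the set of cerebellum. This limit holds for all calls against cerebellum below, those of the gene lists included. All 19 arrays were therefore quantile-normalized (put on 1 common distribution), and every value below is on that scale unless it is called deposited. On the normalized scale the median difference of all genes was 0.006 log2 between Rb/p53-deleted PB and cerebellum, -0.021 between Rb/p53-mutated PB and cerebellum, and -0.036 between the tumor groups, against -0.056, -0.917 and -0.862 in the deposited values. The tumors carried the pineal markers of their label: the mean level of 7 pinealocyte and photoreceptor genes was 10.96 to 11.34 in Rb/p53-deleted PB, 11.06 to 11.40 in Rb/p53-mutated PB and 7.17 to 7.59 in cerebellum. The deleted gene was a weak check of the labels: Rb1 averaged 10.37 ± 0.289 (SD, n = 11) in deleted and 10.17 ± 0.219 (SD, n = 5) in mutated tumors and 10.03 ± 0.0525 (SD, n = 3) in cerebellum, not lower in the tumors, but a gene-wide cluster also reads the exons that Cre leaves. A list of granule neuron genes lay at 12.39 to 12.45 in cerebellum and 9.50 to 10.31 in the tumors. In such bulk samples a lower level can come from fewer cells of a type or from less RNA per cell, and the arrays do not separate these.

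The Bcl2a1 copies come first, because their near-identity sets what the arrays can read. Bcl2a1 encodes A1, a survival protein known mainly from blood cells, and the mouse genome carries copies named Bcl2a1a, Bcl2a1b, Bcl2a1c and Bcl2a1d on chromosome 9. Whether the Bcl2a1c copy yields a working A1 protein was not tested. Bcl2a1c lies at chr9:114330135-114330578 (GRCm38.p6), apart from the other 3. The promoter windows below run from 250 bases before to 50 bases after each annotated start, 5′ to 3′ on the gene's strand, from RefSeq (GRCm38.p6): chr9:88956670-88956969 for Bcl2a1a, chr9:89199023-89199322 for Bcl2a1b and chr9:114329885-114330184 for Bcl2a1c, all on the plus strand, and chr9:88731801-88732100 on the minus strand for Bcl2a1d. Capitals mark AGAGGAAG, a spelling of the motif bound by PU.1.
Bcl2a1a: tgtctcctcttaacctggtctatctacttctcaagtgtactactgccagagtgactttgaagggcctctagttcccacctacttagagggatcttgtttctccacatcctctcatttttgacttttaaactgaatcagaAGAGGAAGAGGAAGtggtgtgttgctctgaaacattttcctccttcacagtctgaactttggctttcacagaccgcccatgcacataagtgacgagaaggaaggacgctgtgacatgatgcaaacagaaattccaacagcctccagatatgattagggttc
Bcl2a1b: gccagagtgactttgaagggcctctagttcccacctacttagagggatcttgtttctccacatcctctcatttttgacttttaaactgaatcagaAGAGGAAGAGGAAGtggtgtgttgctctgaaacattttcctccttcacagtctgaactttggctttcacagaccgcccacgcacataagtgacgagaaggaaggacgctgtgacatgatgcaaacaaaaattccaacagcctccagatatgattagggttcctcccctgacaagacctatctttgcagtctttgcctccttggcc
Bcl2a1c: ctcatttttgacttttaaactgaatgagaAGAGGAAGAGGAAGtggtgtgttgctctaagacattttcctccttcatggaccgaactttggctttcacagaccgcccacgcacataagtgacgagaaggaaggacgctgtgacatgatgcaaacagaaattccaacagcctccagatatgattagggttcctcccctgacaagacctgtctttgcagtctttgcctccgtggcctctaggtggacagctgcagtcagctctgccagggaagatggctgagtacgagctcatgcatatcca
Bcl2a1d: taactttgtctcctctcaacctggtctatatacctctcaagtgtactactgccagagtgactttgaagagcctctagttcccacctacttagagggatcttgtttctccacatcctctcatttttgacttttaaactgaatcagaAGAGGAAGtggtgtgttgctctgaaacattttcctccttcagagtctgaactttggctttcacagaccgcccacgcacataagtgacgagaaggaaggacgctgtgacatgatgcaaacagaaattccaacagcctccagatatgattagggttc

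The starts are annotated at different points of a shared sequence, so the windows are offset against each other. Local alignments of the 6 pairs of windows covered 184 to 294 bases and were 95.7% to 99.2% identical, and the Bcl2a1c window aligned with the Bcl2a1b window over 234 bases at 95.7%. In the Bcl2a1c window the marked run starts 221 bases before the annotated start and holds 2 matches that overlap each other; the Bcl2a1d window holds 1. All 4 windows hold the motif, as do 4.55% of the 32851 mouse windows of this length searched on both strands, and since the copies share this stretch they count as 1 sequence. This motif was searched after Spi1, the gene of PU.1, had been seen beside Bcl2a1c (below). Among the 13 windows of the 9 member genes that had one, Bcl2a1c and Bak1 held it. The same search found the E2F spellings TTTCCCGC, TTTCGCGC, TTTGCCGC and TTTGGCGC in 1 Bcl2l1 window (2.26% of all windows), the NF-kB consensus in 1 Bcl2l1 window (8.46%) and the p53 half-site in none (8.36%). A match is a run of letters, not a bound site.

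The level of Bcl2a1c, the gene kept for its difference between the tumor groups, was 7.84, 7.57, 7.52, 7.60 and 8.18 in Rb/p53-mutated PB1 to PB5, between 5.39 and 6.27 (median 5.77) in the 11 Rb/p53-deleted PBs, and 4.93, 5.44 and 5.05 in cerebellum. The 5 mutated tumors lay above every other array, and 1 cerebellum sample lay inside the range of the deleted tumors. The group means were 7.74 ± 0.276 (SD, n = 5), 5.80 ± 0.285 (SD, n = 11) and 5.14 ± 0.265 (SD, n = 3), a difference of 1.94 log2 between the tumor groups and of 2.60 between mutated tumors and cerebellum. The deleted tumors differed from cerebellum by 0.65, and PB11 alone differed from it by 1.12. In the deposited values the tumor groups differed by 1.08 log2, against a fall of 0.862 in the median of all genes, and the mutated tumors again lay above all others (6.87 to 7.52, against 5.57 to 6.48 in deleted tumors and 4.99 to 5.55 in cerebellum). The deleted tumors and cerebellum lay within the dim part of the array: the lowest 25% of clusters on the normalized scale was under 6.41 and the lowest 10% under 5.19, above the cerebellum mean. Whether the probes stood above background there is unknown, so no fold is given.

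A further 3 probe clusters were annotated to all 4 copies and so cannot be assigned to one. Their means were 8.73, 8.79 and 8.80 in the mutated tumors, 7.32, 7.32 and 7.93 in the deleted tumors, and 6.70, 6.71 and 7.11 in cerebellum. All 3 shared clusters thus stood higher in the mutated tumors on the normalized scale. PB11, the highest deleted tumor for the cluster of Bcl2a1c alone (6.27), was at the low end here. It lay at 7.01, 7.01 and 7.41, where the lowest deleted values were 7.01, 6.99 and 7.41. On the deposited scale the first and second were 8.04 and 8.10 in mutated tumors against 7.54 in deleted tumors for each. The third was 8.11 against 8.14. The tumor groups overlapped in all 3 there, with lowest mutated values of 7.73, 7.82 and 7.83 and highest deleted values of 7.91, 7.83 and 8.47. Only the promoter windows of the copies were compared, not their transcripts or the probes. The cluster annotated to Bcl2a1c alone may also take up signal of the other 3, and this was not tested.

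**Figure D1:**
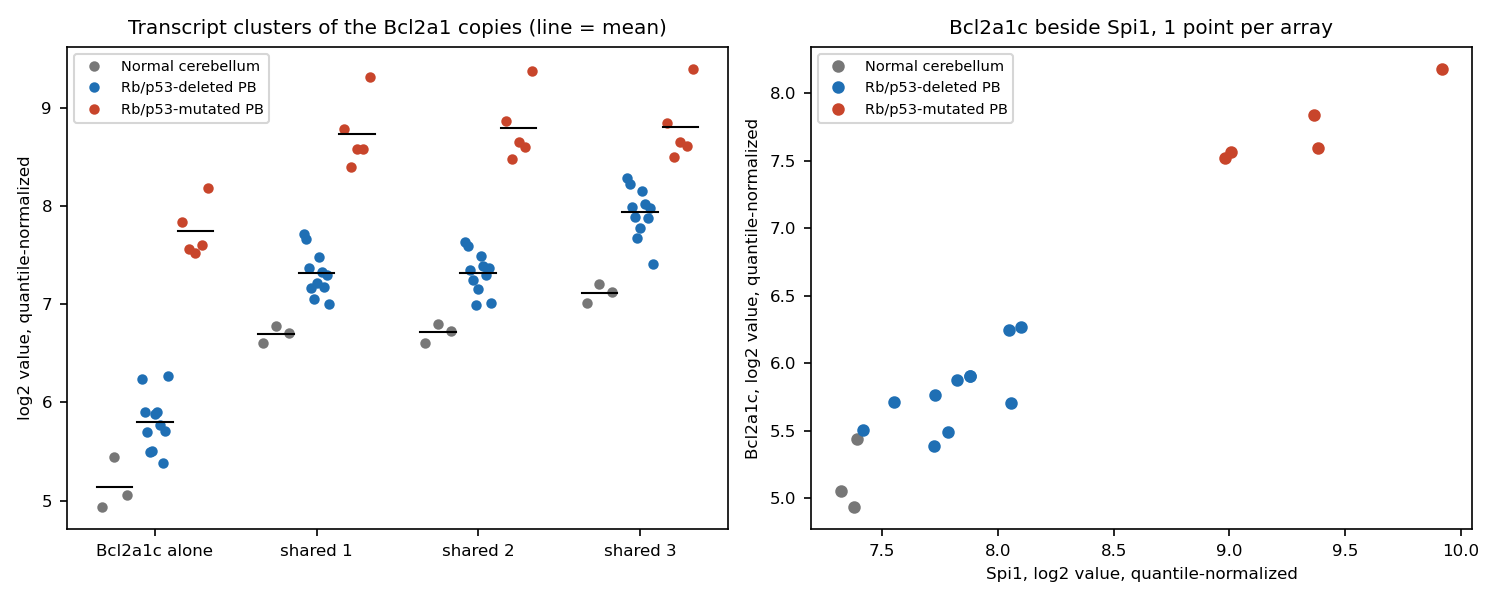
Left, log2 level (normalized scale) of the cluster annotated to Bcl2a1c alone and of the 3 clusters shared by all Bcl2a1 copies. Each point is 1 array and each line a group mean. Right, Bcl2a1c against Spi1 in each of the 19 arrays of version 1.0. On this normalized scale the 5 Rb/p53-mutated arrays sit at 7.52 or above for Bcl2a1c and at 8.98 or above for Spi1. Every other array sits at 6.27 or below for Bcl2a1c and 8.10 or below for Spi1. In the deposited values, not drawn, Spi1 overlaps between the tumor groups.

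The genes whose pattern was most like that of Bcl2a1c over the 19 arrays were Spi1, which encodes the myeloid and B-cell transcription factor PU.1 (Pearson's r = 0.976), Slamf9 (0.966), Lpxn (0.965), Pfn1 (0.964) and Washc3 (0.956). These 19 arrays share their groups and array sets, and Bcl2a1c was kept for its gap between the tumor groups. The ranking therefore favours any gene high in the mutated arrays and is only a description. Within the 11 deleted tumors the leading genes were Snrpa1 (0.920), Lum (0.918), BC028528 (0.914), Hpgds (0.908) and Rpf2 (0.902). Spi1 was not among these, and correlated with Bcl2a1c within those 11 arrays at r = 0.693 (Spearman's rho = 0.673). Spi1 itself averaged 9.33 ± 0.380 (SD, n = 5) in mutated tumors, 7.82 ± 0.211 (SD, n = 11) in deleted tumors and 7.36 ± 0.0366 (SD, n = 3) in cerebellum. Its tumor groups did not overlap on this scale, which its choice by likeness to Bcl2a1c favours, so this too is only a description. In the deposited values Spi1 overlapped between them (8.31 to 9.16 in mutated and 7.61 to 8.45 in deleted tumors), unlike Bcl2a1c.

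Lists of blood and immune cell markers shared the group order of Bcl2a1c only in part. The mean level of 15 microglia and macrophage genes was 8.53 to 9.04 in mutated tumors, 8.18 to 8.77 in deleted tumors and 7.92 to 8.03 in cerebellum, so the tumor groups overlapped. Between mutated and deleted tumors 7 of the 15 were higher, 3 lower and 5 did not pass (1 higher, 11 lower and 3 not passing in the deposited values). Among all genes 20.7% were higher and 25.9% lower on the normalized scale, and 0.737% and 92.3% in the deposited values. The complement genes C1qb and C1qc (1.12 and 0.93 log2) and the Fc receptor chain gene Fcer1g (1.09) were among those higher, and the Fc receptor gene Fcgr3 (-0.81) among those lower. A mean of 10 neutrophil genes lay at 6.28 to 6.44 in mutated tumors, 6.11 to 6.29 in deleted tumors and 6.40 to 6.54 in cerebellum. It was thus highest on average in cerebellum, where Bcl2a1c was lowest. Of the 10, 4 were higher and 1 lower in mutated than in deleted tumors (deposited values 0 and 9). A mean of 9 lymphocyte genes lay at 6.60 to 7.15, 6.46 to 6.84 and 6.35 to 6.40 in the same group order. Of these, 3 were higher and none lower in mutated than in deleted tumors (deposited values 0 and 8). Within the 11 deleted tumors the macrophage mean correlated with Bcl2a1c at r = 0.484 (Spearman's rho = 0.482). The part of these cells in the Bcl2a1c difference was not tested.

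Against cerebellum, the Rb/p53-deleted PBs carried more transcript of the BH3-only genes Bcl2l11 (2.16-fold), Bik (1.63-fold) and Bid (1.27-fold) and less of the survival gene Bcl2l2 (1.79-fold lower). The other 5 tested members did not pass FDR 0.01 on the normalized scale: Bcl2, Bcl2l1, Mcl1, Bak1 and Bad. With 3 of 9 higher and 1 of 9 lower, the members stood beside a background in which 25.0% of all genes were higher and 27.7% lower. In the deposited values 3 were higher and 4 lower (all genes 19.7% and 31.9%), the added lower calls being Bcl2 (-0.56 log2), Mcl1 (-0.57) and Bad (-0.28). The median difference of the 9 members was -0.16 log2, against 0.006 for all genes.

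Among the survival genes, Bcl2l2 encodes BCL-W, a protein known for supporting neurons and sperm cells, and lies at chr14:54883366-54890858. Its level was 8.84, 8.78 and 8.82 in the 3 cerebellum arrays, 7.72 to 8.18 (median 8.01) in the deleted tumors, and 7.77, 7.80, 7.80, 7.78 and 7.59 in the mutated tumors. Every tumor lay below every cerebellum array. The difference was -0.84 log2 (SE 0.0775, adjusted p = 8.68e-08) for the deleted and -1.07 (SE 0.0775, adjusted p = 2.12e-06) for the mutated tumors, and PB11, the only tumor in the array set of cerebellum, differed from the cerebellum mean by -0.81 as a single array, which gives no test. Between the tumor groups Bcl2l2 was lower by a further 0.23 log2 in the mutated tumors (SE 0.0666, adjusted p = 0.0094), with overlapping ranges.

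Bcl2 itself, the founding survival gene of the family (chr1:106538176-106714290), was 9.09, 9.0 and 9.16 in cerebellum, 8.43 to 9.33 (median 8.82) in the deleted tumors and 8.80, 9.22, 8.96, 9.24 and 9.09 in the mutated tumors. The 3 groups overlapped. Its difference from cerebellum was -0.27 log2 (95% interval -0.56 to 0.01, adjusted p = 0.0867) in the deleted and -0.03 (-0.28 to 0.23, adjusted p = 0.853) in the mutated tumors. Between the tumor groups it differed by 0.25 log2 (SE 0.116, adjusted p = 0.088), a value that passed FDR 0.05 without mutated PB1 (0.31, adjusted p = 0.0444) and turned to -0.64 in the deposited values.

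Bcl2l1, which encodes BCL-XL (chr2:152758732-152833803), was 10.29, 10.18 and 10.11 in cerebellum, 9.87 to 10.46 (median 10.22) in the deleted tumors and 10.16, 9.66, 9.74, 10.22 and 10.03 in the mutated tumors. The highest deleted value was that of PB11, the array that shares its set with cerebellum. The difference between deleted tumors and cerebellum was -0.04 log2, with a 95% interval of -0.26 to 0.19 (adjusted p = 0.779), and PB11 alone lay 0.27 above the cerebellum mean. The mutated tumors differed from cerebellum by -0.23 (95% interval -0.55 to 0.08) and from the deleted tumors by -0.20 (95% interval -0.42 to 0.02), neither past the threshold.

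Mcl1 encodes a short-lived survival protein (chr3:95656944-95663179) and was 10.20, 10.23 and 10.25 in cerebellum, 9.85 to 10.39 (median 10.03) in the deleted tumors and 9.78, 10.05, 10.09, 10.16 and 9.84 in the mutated tumors. Of the 11 deleted tumors PB11 was again highest, and the mutated tumors all lay below the cerebellum arrays. The normalized differences from cerebellum were -0.17 (adjusted p = 0.107) and -0.24 log2 (adjusted p = 0.0616), and the tumor groups differed by -0.07 (95% interval -0.25 to 0.10). Bcl2l1 and Mcl1 both fell below cerebellum in the mutated tumors when each array was only centred on its median (-0.57 log2 for each, past FDR 0.01).

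**Figure D2:**
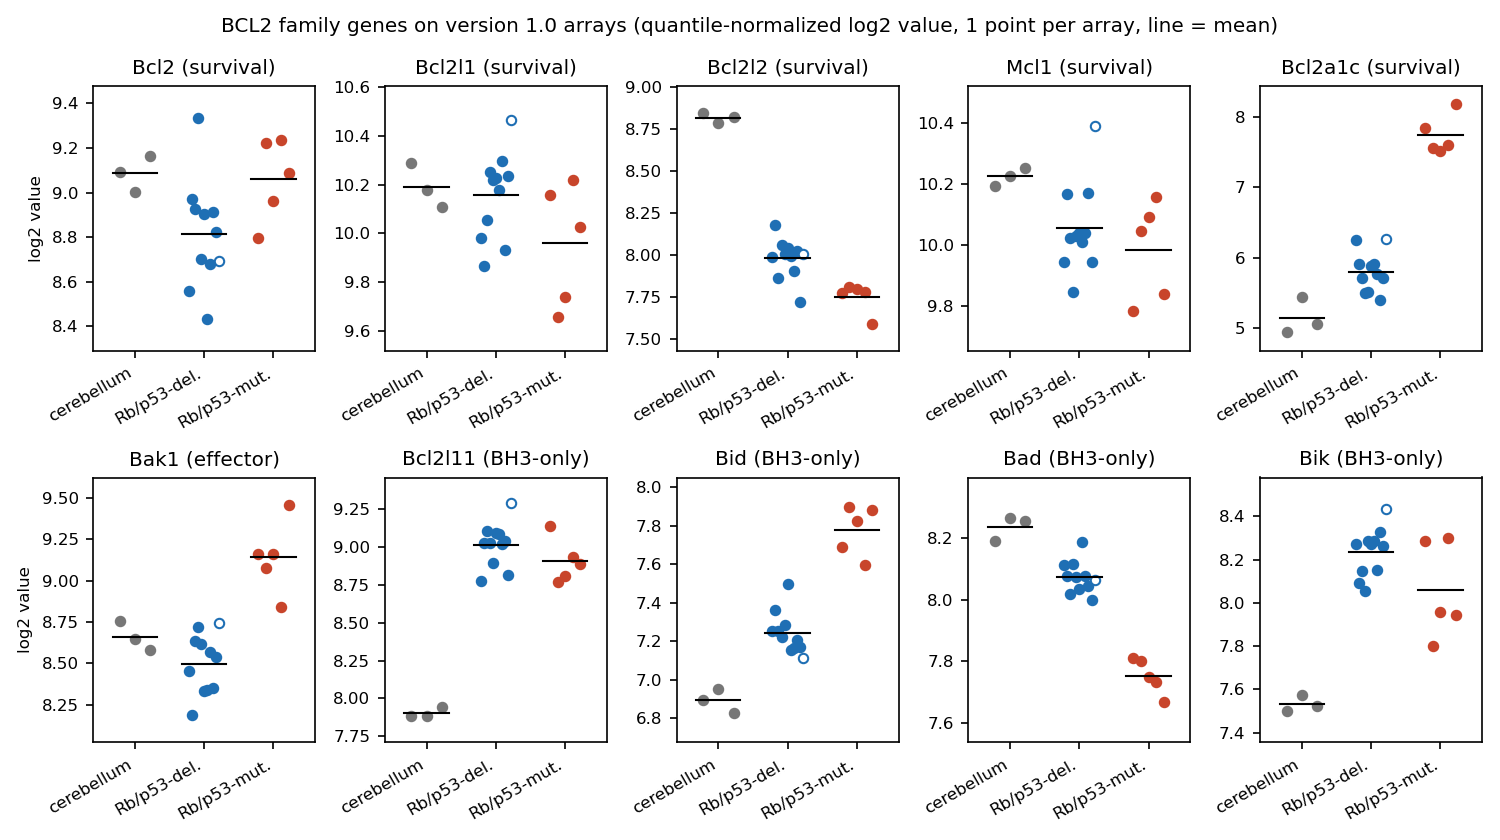
Log2 level (normalized scale) of the 10 BCL2 family genes in each of the 19 arrays of version 1.0, by group. Lines mark the group means, and Rb/p53-deleted PB11 is a hollow point. Bcl2l11 and Bik are higher and Bcl2l2 lower in every tumor than in every cerebellum array. Bak1, Bid and Bcl2a1c, the last kept for this difference, are higher in every mutated tumor than in every deleted tumor. How many of all genes separate in these ways was not counted.

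Of the death genes, Bcl2l11 encodes BIM, a BH3-only protein known for its part in neuronal and lymphocyte death, and lies at chr2:128126038-128162547. It was 7.88, 7.88 and 7.94 in cerebellum, 8.78 to 9.29 (median 9.03) in the deleted tumors and 9.14, 8.77, 8.81, 8.93 and 8.89 in the mutated tumors. All tumors of both genotypes lay above all 3 cerebellum arrays. The difference was 1.11 log2 (SE 0.0889, adjusted p = 1.37e-08) for the deleted tumors and 1.00 (SE 0.0956, adjusted p = 1.39e-05) for the mutated tumors. PB11 alone, within the array set of cerebellum, lay 1.39 above it, a single array with no test. The mutated difference was 0.03 in the deposited values, in which the median of all genes lay at -0.917. The tumor groups differed by -0.11 (95% interval -0.28 to 0.06, adjusted p = 0.279).

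Bik, a BH3-only gene whose protein sits mainly at the endoplasmic reticulum (chr15:83526790-83544635), showed the same order. It was 7.50, 7.58 and 7.52 in cerebellum, 8.06 to 8.43 (median 8.27) in the deleted tumors and 8.29, 7.80, 7.96, 8.30 and 7.94 in the mutated tumors, with no tumor at the level of cerebellum. The difference was 0.70 log2 (SE 0.0749, adjusted p = 4.85e-07) for the deleted tumors, of which PB11 alone, within the array set of cerebellum, lay 0.90 above it. For the mutated tumors it was 0.52 (SE 0.126, adjusted p = 0.00495), a call that was lost without any 1 of the 3 cerebellum arrays (0.51 to 0.55, adjusted p = 0.0164 to 0.0227) and that turned to -0.36 in the deposited values. Between the tumor groups the value was -0.18 (adjusted p = 0.09), which passed FDR 0.05 without mutated PB1 (-0.23, adjusted p = 0.033) or PB4 (-0.24, adjusted p = 0.0319).

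Bid encodes the BH3-only protein that caspase-8 cleaves to carry death receptor signals to the mitochondrion (chr6:120893119-120917062). Its level was 6.90, 6.95 and 6.83 in cerebellum, 7.11 to 7.50 (median 7.22) in the deleted tumors and 7.69, 7.90, 7.82, 7.60 and 7.88 in the mutated tumors. The 3 groups formed separate steps with no overlap. The deleted tumors were 0.35 log2 above cerebellum (SE 0.075, adjusted p = 0.000698), and PB11 alone, within the array set of cerebellum and the lowest of the deleted tumors, lay 0.22 above it. With the array set as a block, where PB11 is the only tumor array that enters the contrast and is assumed to vary like the others, the call was not made (adjusted p = 0.180). The mutated tumors were 0.89 above cerebellum (SE 0.0916, adjusted p = 2.41e-05) and 0.54 above the deleted tumors (SE 0.0685, adjusted p = 1.05e-05). In the deposited values these last became 0.06 and -0.34, against all-gene medians of -0.917 and -0.862, so that Bid stood above the bulk of genes in both scales and above the deleted tumors only after scaling.

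Bad encodes the BH3-only protein that growth factor signalling keeps phosphorylated and inactive (chr19:6941861-6951905). It was 8.19, 8.27 and 8.25 in cerebellum, 8.0 to 8.19 (median 8.07) in the deleted tumors and 7.81, 7.80, 7.75, 7.73 and 7.67 in the mutated tumors. All mutated values were below all others. Bad was lower by 0.48 log2 in mutated tumors than in cerebellum (SE 0.0709, adjusted p = 0.000251) and by 0.32 than in deleted tumors (SE 0.048, adjusted p = 4.85e-05), while deleted tumors and cerebellum differed by -0.16 (adjusted p = 0.0168, above the 0.01 used there).

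Bak1, the gene of the effector BAK that sits in the mitochondrial outer membrane (chr17:27019812-27028627), was 8.75, 8.65 and 8.58 in cerebellum, 8.19 to 8.74 (median 8.54) in the deleted tumors and 9.16, 9.08, 9.16, 8.84 and 9.46 in the mutated tumors. The mutated tumors lay above every other array on this scale. They were 0.64 log2 (1.56-fold) above the deleted tumors (SE 0.101, adjusted p = 7.36e-05), a difference of -0.26 in the deposited values. Against cerebellum the difference was 0.48 (SE 0.128, adjusted p = 0.00838), but -0.62 in the deposited values and 0.28 (adjusted p = 0.0603) with median-centred arrays, and it missed FDR 0.01 without mutated PB1, PB2 or PB3 or without any 1 cerebellum array (0.44 to 0.53, adjusted p = 0.0123 to 0.0393).

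Counted together, 4 of 9 tested members were higher and 2 lower in the Rb/p53-mutated PBs than in cerebellum, where 23.8% of all genes were higher and 27.5% lower. As deposited, none was higher and 6 were lower, beside 5.01% and 75.6% of all genes. Between mutated and deleted tumors Bak1 and Bid were higher and Bcl2l2 and Bad lower, 2 and 2 of 9 beside 20.7% and 25.9% of all genes on the normalized scale; in the deposited values all 9 were lower, beside 0.737% higher and 92.3% lower among all genes. The normalized median of the 9 members was -0.026 log2 against cerebellum and -0.109 between the tumor groups (all genes -0.021 and -0.036). The deposited medians were -1.21 and -0.988, both further down than those of all genes.

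**Figure D3:**
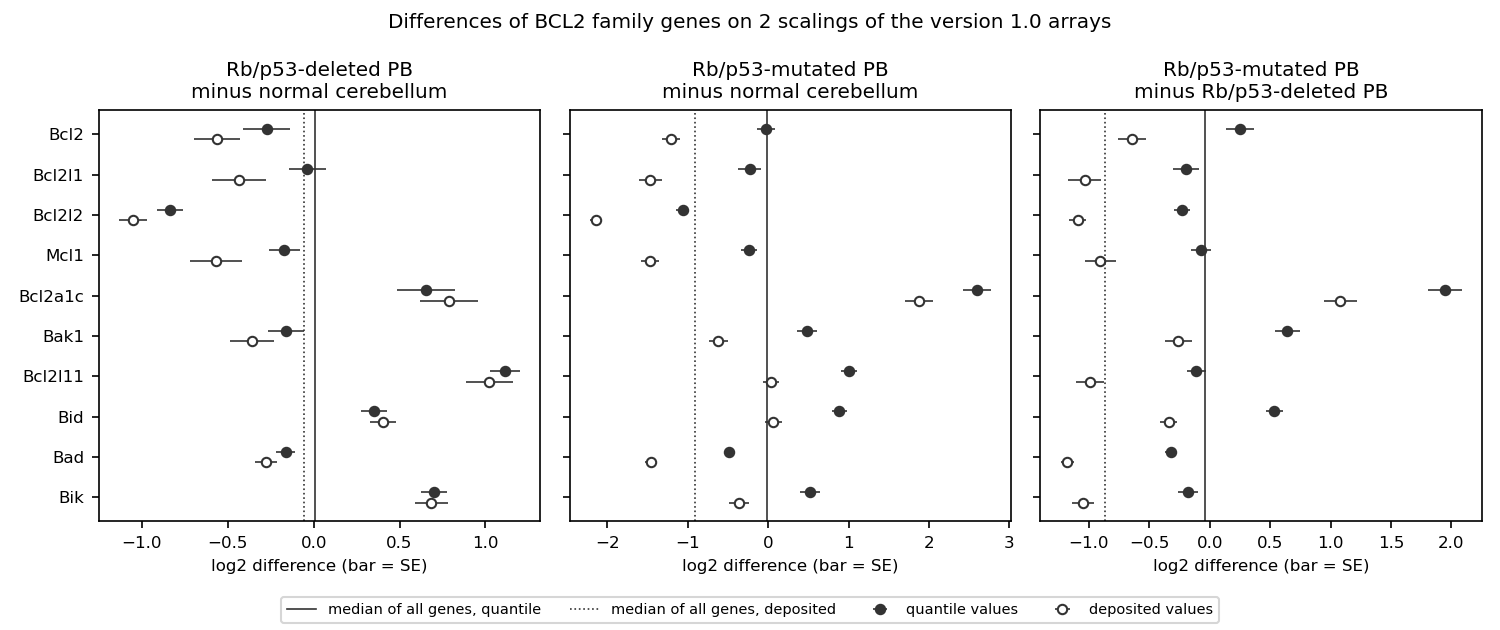
Log2 difference of the 10 members (Bcl2a1c as a description) in the 3 comparisons of version 1.0, with filled points for normalized and open points for deposited values, bars for 1 SE, and vertical lines at the median difference of all genes on each scale. The scales keep the sign of every member for deleted tumors against cerebellum, with Bcl2 (-0.27 and -0.56) and Mcl1 (-0.17 and -0.57) lower as deposited. In both comparisons with mutated tumors every member is lower as deposited, beside all-gene medians of -0.917 and -0.862. The size of that shift differs between members: against cerebellum Mcl1 goes from -0.24 to -1.47 and Bcl2a1c from 2.60 to 1.87.

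The remaining genes of the pathway were read from lists, on the normalized scale, and each list median stands beside all-gene medians of 0.006, -0.021 and -0.036 log2 for deleted tumors against cerebellum, mutated tumors against cerebellum and mutated against deleted tumors. The all-gene shares called higher and lower were 25.0% and 27.7%, 23.8% and 27.5%, and 20.7% and 25.9% in the same order. Of the 6 other BH3-only genes measured, 3 were higher and 1 lower in deleted tumors than in cerebellum (2 and 2 as deposited): Bmf, which responds to loss of cell attachment (1.14 log2), Pmaip1, the p53 target gene of NOXA (0.75), and the mitophagy receptor gene Bnip3l (0.24) were higher, and Bnip3 (-0.91), its relative, was lower. In mutated tumors against cerebellum only Bnip3l of the 6 passed (0.44). Between mutated and deleted tumors Bmf (-0.85, adjusted p = 0.00232) and Pmaip1 (-0.49, adjusted p = 0.0082) were lower and Bnip3 (0.60, adjusted p = 0.00655) and Bnip3l (0.20, adjusted p = 0.0105) higher, and the list medians were 0.07, 0.15 and 0.14. The 2 other survival genes measured alone, Bcl2l10 and Bcl2l12, gave 1 call above cerebellum (Bcl2l12, 0.54 in deleted tumors), and Bcl2l12 was lower in mutated than in deleted tumors (-0.28 log2, adjusted p = 0.0452). Of 4 further effector-like genes, Bok (0.45) and Bcl2l13 (0.33) were higher in deleted tumors than in cerebellum and none passed in mutated tumors, and Bok (-0.43) and Bcl2l14 (-0.21) were lower in mutated than in deleted tumors. As deposited, none of these 4 passed in deleted tumors and all 4 were lower in mutated tumors than in cerebellum.

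Downstream of the mitochondrion, 5 of 8 apoptosome and caspase genes were higher and 1 lower in deleted tumors than in cerebellum (4 and 1 as deposited), beside 25.0% and 27.7% of all genes. The initiator caspase genes Casp8 (2.31 log2) and Casp2 (1.01), the apoptosome scaffold gene Apaf1 (0.93) and the effector caspase gene Casp6 (0.67) were among those higher. In mutated tumors Casp8 (2.41) and Casp2 (0.70) were higher than in cerebellum, 2 of 8, and Apaf1 (-0.50) and Casp2 (-0.30) were lower than in deleted tumors. The medians of the 8 were 0.53, 0.32 and -0.16 log2. Of 8 inhibitor of apoptosis genes, 3 were higher and 1 lower in deleted tumors than in cerebellum (2 and 1 as deposited), led by Birc5 (2.93), the gene of survivin, which also serves cell division. In mutated tumors 4 were higher and 3 lower than in cerebellum, with Birc5 at 2.34 and Xiap, the gene of a direct caspase inhibitor, at -0.84. Xiap (-1.07), Birc2 (-0.76) and Birc5 (-0.58) were lower in mutated than in deleted tumors, where 5 of the 8 were lower and 1 higher (list medians 0.23, 0.14 and -0.31).

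Of 10 p53 target genes of the death pathway, 6 were higher and 1 lower in deleted tumors than in cerebellum, beside 25.0% and 27.7% of all genes, and 5 and 3 in mutated tumors, beside 23.8% and 27.5%. As deposited, the deleted tumors had 3 higher and 1 lower, and the list median was 0.16 in place of 0.54. Pidd1, whose protein forms a caspase-2 activating complex, was higher in both (2.41 and 2.31 log2), and Zmat3 was lower in both (-1.44 and -1.36). Between mutated and deleted tumors 3 of 10 were lower and none higher, among them Perp (-1.01) and Aen (-0.54), and the list medians were 0.54, 0.42 and -0.09. In the deposited values every one of the 8 caspase and apoptosome genes, the 8 inhibitor genes and the 10 p53 targets was lower in mutated than in deleted tumors, as were 5 of the 6 BH3-only genes, beside the 92.3% of all genes. Against cerebellum, the deposited values had 1 higher and 6 lower of the 8 caspase and apoptosome genes, 1 and 5 of the 8 inhibitors, and 1 and 7 of the 10 p53 targets in mutated tumors. The normalized calls with mutated tumors are therefore positions relative to the other genes of the array.

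On version 2.0, where the 7 arrays had medians of 5.26 to 5.36 and the deposited values were used, the addition of floxed Rb to Dicer1 and p53 loss was compared. No member and no gene passed FDR 0.05 (0% higher and 0% lower of 22180, limma) in the comparison of 3 with 3 tumors. At an unadjusted p under 0.05 there were 1941 genes (8.75%) and 1 member, Bik, and the smallest adjusted p was 0.364. The level of Rb1 was 9.52, 9.97 and 9.61 in the Dicer1/p53-deleted and 8.79, 8.54 and 8.30 in the Rb/Dicer1/p53-deleted PBs (-1.16 log2, SE 0.197, adjusted p = 0.371), in the direction of the labels with no overlap. Dicer1 was floxed in both groups and its level lay between 7.75 and 8.28 in them, with 8.27 in PB12. Differences of 1 log2 were recovered for 35% of simulated changed genes in this design and of 2 log2 for 88%.

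Bik was 6.22, 6.18 and 5.82 in the Dicer1/p53-deleted PBs and 6.94, 6.44 and 7.40 in the Rb/Dicer1/p53-deleted PBs, and 6.74 in Rb/p53-deleted PB12. The 3 tumors with floxed Rb, Dicer1 and p53 lay above the 3 without floxed Rb, and the difference was 0.86 log2 (SE 0.26, 95% interval 0.26 to 1.45, adjusted p = 0.476). Bad was 5.61, 5.57 and 5.35 against 5.71, 5.81 and 5.65, also without overlap (0.21 log2, 95% interval -0.14 to 0.56), and 5.81 in PB12. The share of all genes without overlap in this comparison was not counted. Bcl2l11 was 6.29, 6.30 and 6.73 against 6.92, 6.69 and 6.72, and 7.03 in PB12. Its groups overlapped, and its difference of 0.34 log2 had a 95% interval of -0.08 to 0.75.

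The survival genes overlapped between these tumor groups. Bcl2 was 5.66, 6.02 and 5.55 against 6.11, 5.16 and 4.98, and 5.88 in PB12 (difference -0.32, 95% interval -1.03 to 0.38). Bcl2l1 was 6.94, 6.87 and 7.22 against 7.20, 7.54 and 6.81, and PB12 at 7.82 was the highest of the 7 arrays. For Mcl1 the order was the other way: 9.10, 8.96 and 9.06 against 9.01, 8.78 and 8.87, with PB12 lowest at 8.40. Bcl2l2 ranged from 6.12 to 6.49 over the 7 arrays and differed by -0.08 (95% interval -0.45 to 0.29).

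Bcl2a1c stayed between 4.37 and 4.81 in all 7 arrays, below every array median, with 4.61, 4.66 and 4.81 against 4.68, 4.64 and 4.77 and 4.37 in PB12. Its difference was 0.005 log2 (95% interval -0.33 to 0.34). The cluster of Bcl2a1a on this array averaged 5.17 and 4.96, with 4.81 in PB12. Bak1 was 6.63, 6.81 and 6.10 against 6.09, 6.03 and 6.85, and PB12 lay lowest at 5.51; Bid ranged from 5.03 in PB12 to 5.27 and differed by -0.02 (95% interval -0.35 to 0.30). The macrophage list had means of 6.0 to 7.0 and 5.99 to 6.55, and 6.05 in PB12. The median difference of the 10 members was -0.010 log2, against -0.018 for all genes.

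**Figure D4:**
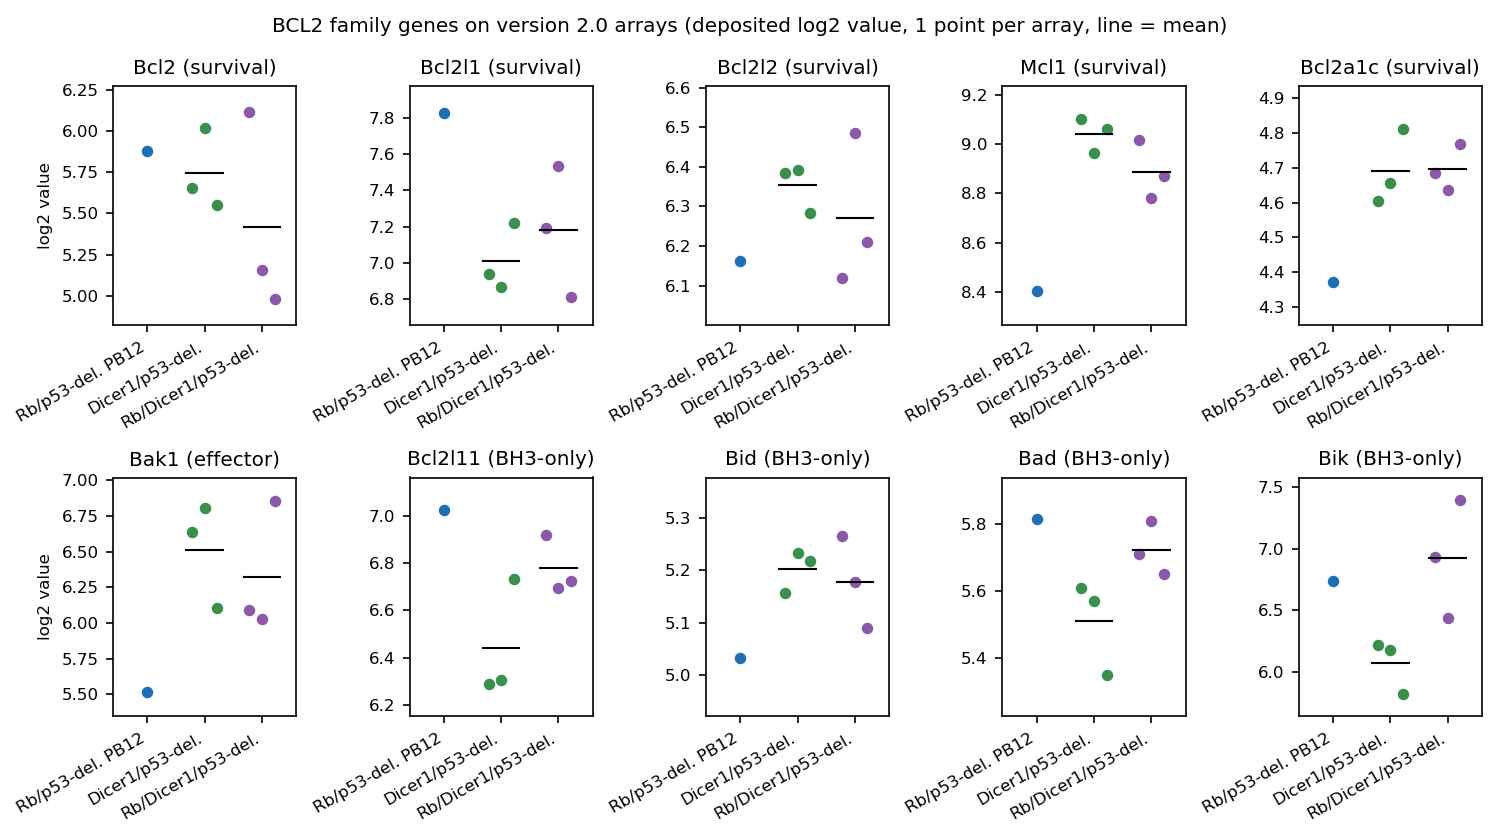
Log2 level as deposited of the 10 BCL2 family genes in each of the 7 arrays of version 2.0, by group. A line marks the group mean where a group has 3 arrays. Bik and Bad do not overlap between the Dicer1/p53-deleted and Rb/Dicer1/p53-deleted PBs, and how many of all genes do the same was not counted. The single Rb/p53-deleted PB12 is highest for Bcl2l1 (7.82) and lowest for Mcl1 (8.40) and Bak1 (5.51).

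Casp8 had the lowest p among the caspase genes of version 2.0, at 8.83 in the Rb/Dicer1/p53-deleted and 7.26 in the Dicer1/p53-deleted PBs (1.57 log2, SE 0.208, adjusted p = 0.364), and did not pass. PB12 is 1 tumor and was compared with no group by a test. Levels on version 1.0 and version 2.0 come from different probes and separate normalizations and were not set against each other.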

How the data were processed

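RNA of tumors and of cerebellum was hybridised to Affymetrix Mouse Gene ST arrays, 19 of version 1.0 and 7 of version 2.0. The study names snap-frozen tissue for the tumors of version 1.0. The authors deposited 1 table per version of log2 signals made by RMA in Affymetrix Expression Console (version not given in the sources used here); their background correction and normalization were kept, and no probe-level data were used. Genes were named from GEO's platform annotation, clusters with several symbols were left out of the tests, and a gene with several clusters (999 and 1082 genes) was represented by the brightest on average. The version 1.0 table (35556 clusters) was quantile-normalized over its 19 arrays; the version 2.0 table (41345 clusters) was used as deposited. Each comparison was fitted on its own groups with lmFit and eBayes of limma 3.58.1 in R 4.3.3, two-sided, with Benjamini-Hochberg adjustment over all named genes, at FDR 0.01 against cerebellum and 0.05 between tumors. The methods named these functions. The comparisons share samples. How many of all genes separate the groups without overlap was not counted, so non-overlap of a member describes its own values only. Members and lists were chosen with earlier results of these data known; of each list, up to 4 genes with the largest called difference, or the 1 with the smallest p, are named. On simulated data with 200 changed genes, differences of 1 log2 were recovered for 97%, 82%, 93% and 35% in the order of the comparisons, and of 2 log2 for 98%, 97%, 100% and 88%. Motifs and alignments used Biopython 1.88 and RefSeq windows; 9 of 10 members had a window, and Bik did not. The number of arrays limits the precision. The alternatives were deposited values, median-centred arrays, the mean over a gene's clusters, a filter on the lowest 25% of genes and the replicate number as a block. The array set was a block only for deleted tumors against cerebellum. Single arrays were left out in the cerebellum, mutated, Dicer1/p53-deleted and Rb/Dicer1/p53-deleted groups, and of the Rb/p53-deleted arrays only PB11. The p53 transcript itself is not analysed here.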

Additional observations from a re-analysis of the deposited data

Results flagged for a closer look

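Bcl2l2 in Rb/p53-mutated PB5 was 7.59, away from the other 4 mutated tumors at 7.77 to 7.80. The gap to the nearest took 0.852 of the range of the group, above the critical value of 0.71 for 5 samples; 10 groups were tested, and chance marks about 1 group in 20. Without PB5 the difference from the deleted tumors was -0.19 log2 and still passed FDR 0.05.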

How the results depend on the processing

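Of the values of single members under all alternatives, 107 of 119 kept their side and direction for deleted tumors against cerebellum, 126 of 149 for mutated tumors against cerebellum, 118 of 129 for mutated against deleted tumors, and 123 of 130 on version 2.0. For deleted tumors against cerebellum, 7 members passed in the deposited and 7 in the median-centred values, and with the array set as a block the contrast rests on 1 tumor array, PB11 against cerebellum, so its 5948 calls and its values for Bcl2l1 (0.27), Mcl1 (0.17) and Bak1 (0.0818), of opposite sign, describe that array and test nothing about the group; Bcl2l1 ranged from -0.0771 to 0.0129 when single arrays were left out. In the deposited values 16076 genes passed for mutated tumors against cerebellum, with Bak1 at -0.62 and Bik at -0.36, and 18540 genes and 9 members for mutated against deleted tumors, with Bcl2 at -0.64, Bak1 at -0.26 and Bid at -0.34; the deposited all-gene shift is in these values by construction. Bcl2 against cerebellum in mutated tumors ranged from -0.0698 to 0.0401 with arrays left out. On version 2.0 Bid was 0.013 quantile-normalized and 0.0042 median-centred, and with arrays left out Bcl2l1 ranged from -0.0062 to 0.36, Bcl2a1c from -0.0386 to 0.0651 and Bid from -0.0685 to 0.0187. No gene passed there under any alternative run. With the replicate block 8090, 8132, 6575 and 0 genes and 4, 5, 4 and 0 members passed in the 4 comparisons, and the call lost was Bik in mutated tumors against cerebellum (0.48, adjusted p = 0.0256). Same-numbered arrays correlated at -0.205 to 0.288, so the numbers do not pair the samples. The shares of higher among called genes were 47.4%, 46.3% and 44.4% on the normalized and 38.2%, 6.21% and 0.793% on the deposited scale. Array signal limits Bcl2a1c outside the mutated tumors, where it lies near the dim end.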
